A study of Nasonia vitripennis x Nasonia giraulti with 2 samples.

Results

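In the reciprocal F1 hybrids of the jewel wasps Nasonia vitripennis (V) and Nasonia giraulti (G), 2171 CpGs were partly methylated on both alleles in both crosses. They were chosen as the CpGs whose methylation level, the percentage of reads still read as C after bisulfite treatment, was from 25% to 65% on the V allele and on the G allele in F1VG and again in F1GV. These CpGs made up 0.0392% of the 5531492 CpGs listed in both crosses, 3.20% of the 67811 with a pooled level of at least 10%, and 2163 of them lay among the 19729 with a pooled level from 25% to 65%. The pooled level is taken over all reads of both crosses, assigned to an allele or not. F1VG was the cross of an N. vitripennis mother (strain AsymCX) with an N. giraulti father (strain R16A), and F1GV was the reverse cross. Each was 1 whole-genome bisulfite library from the whole bodies of a pool of 50 adult females, 24 h after eclosion. There was thus 1 library per cross, and a test between F1VG and F1GV compared 2 libraries and not the crosses. Because whole bodies were pooled, a CpG methylated in part of the cells or wasps and a CpG methylated on part of the DNA copies in every cell cannot be told apart.

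In insects, DNA methylation is sparse and falls almost entirely on CpGs, mainly within the bodies of actively transcribed genes. In mammals a methyltransferase copies the mark onto the new strand after replication. In insects the roles of these enzymes are inferred from vertebrates and plants, according to the authors. Highly methylated CpGs tend to have methylated neighbours, while most CpGs of the genome carry no mark. Bisulfite treatment converts unmethylated cytosines, and in a hybrid the reads that cover a difference between the parental genomes can be counted for each parental allele. Females of Nasonia are diploid and carry both alleles. Positions below are those of the N. vitripennis v1.0 assembly given with the counts, and gene annotation was not used here.

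F1VG was counted at 5804802 CpGs with 286833473 read counts summed over CpGs (median depth 47), and F1GV at 6527248 CpGs with 371795018 (median depth 55). Read counts summed over CpGs, here and below, hold a read at every CpG it covers and are not numbers of reads. All listed CpGs had at least 8 reads on each allele. At the partly methylated CpGs the median depth was 54 in F1VG and 68 in F1GV, against 48 and 58 over all CpGs listed in both. It was 50 and 64 at the other CpGs of pooled level from 25% to 65%, and 53 and 66 at those of at least 80%. A depth over 2 times the median of either library was found at 77 of the 2171 (3.55%), against 1.82% of all listed CpGs. The share was 2.48% at the other CpGs of pooled level from 25% to 65% and 2.67% at those of at least 80%. Without these 77, 2094 partly methylated CpGs remained. Of them 44.6% were within 100 bp of a CpG of at least 80% and 13.8% in runs, beside 44.9% and 14.4% with the 77.

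The 4 levels used for the choice were alike in their centre. The median level was 47.4% on V and 47.1% on G in F1VG, and 46.7% on V and 45.2% on G in F1GV (SD across CpGs from 10.8 to 11.1 points, n = 2171). These values describe the choice and were not tested. The median depth behind each level was 21 reads on either allele in F1VG, 27 on V and 28 on G in F1GV, and 10 methylated of 21 reads has a Wilson 95% interval from 28.3% to 67.6%. Intervals here cover counting error only, since PCR copies are not independent molecules. All 4 intervals lay above 5% and below 80% at 1745 of the 2171 (80.4%). They lay above 5% at all 2171, which the lower bound and the minimum depth of the choice fix in advance. The upper bound likewise favours intervals below 80%, so these counts describe the depth and cannot show that the CpGs are partly methylated. Depth was not enough to place the CpGs within the bounds, since only 7 had all 4 intervals between 25% and 65%.

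A deep example was position 1766952 of SCAFFOLD28, where 27 of 50 V reads and 22 of 46 G reads were methylated in F1VG, and 13 of 51 V reads and 20 of 59 G reads in F1GV. The levels were thus 54.0% and 47.8% in the first cross and 25.5% and 33.9% in the second. At position 561270 of SCAFFOLD40 the counts were 20 of 45 on V and 28 of 47 on G in F1VG, and 27 of 45 and 24 of 48 in F1GV. All 4 intervals overlapped there, as they did at position 687673 of SCAFFOLD5, with 22 of 45 and 18 of 49 in F1VG and 29 of 52 and 19 of 41 in F1GV. The other CpG among the 4 deepest, position 903140 of SCAFFOLD16, had 23 of 47 on V and 12 of 43 on G in F1VG and 26 of 63 and 30 of 53 in F1GV, so that V was the higher allele in F1VG and G in F1GV. None of these 4 CpGs had reads left without an allele.

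Many of the chosen CpGs lay near a bound. A level within 2 points of 25% or 65% was found at 651 of the 2171, with a level of exactly 25% at 157 and of exactly 65% at 40. Just inside the lower bound, position 1618341 of SCAFFOLD10 had 9 of 36 V reads methylated in F1VG (25%), and just outside it position 225229 of SCAFFOLD28 had 15 of 61 G reads in F1GV (24.6%). Just inside the upper bound, position 394232 of SCAFFOLD40 had 26 of 40 G reads in F1GV (65%), and just outside it position 965266 of SCAFFOLD7 had 28 of 43 G reads in F1VG (65.1%). A further 4843 CpGs had 3 of the 4 levels inside the bounds, with the other below in 2046 and above in 2797. The measured levels thus run on past the bounds. Whether the underlying levels do so cannot be told, since counting error alone can move a level across a bound.

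**Figure D1:**
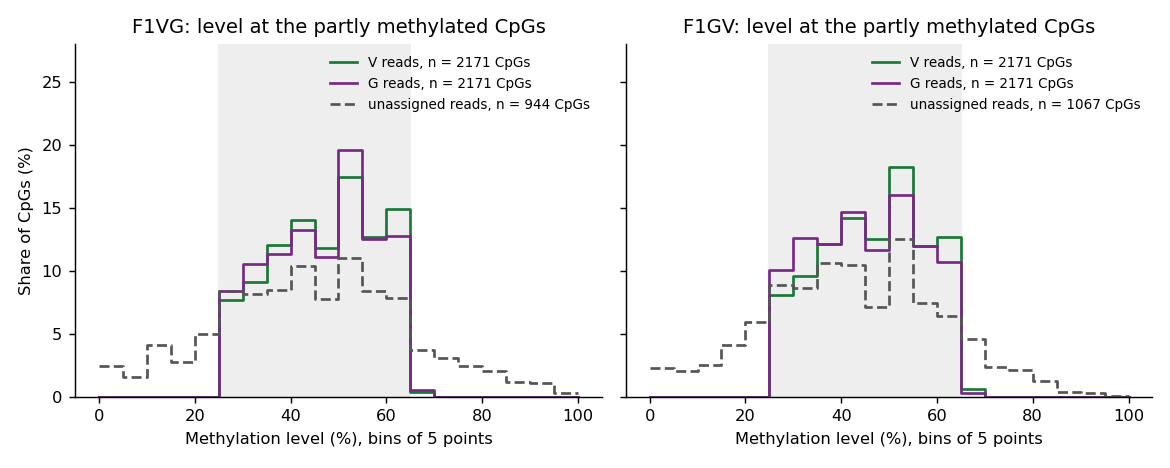
Share of the partly methylated CpGs (vertical axis, %) by methylation level (horizontal axis, bins of 5 points) in F1VG (left) and F1GV (right), for V reads, G reads and reads without an allele (dashed, CpGs with at least 8 such reads). The V and G levels are held within the grey band by the choice, with exact levels of 65% drawn in the bin that starts there, while 70.4% (F1VG) and 72.3% (F1GV) of the CpGs had their unassigned level in the band.

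Reads that covered no informative difference between the parents were not used in the choice, and gave an independent measure at the same CpGs. Of the reads over the partly methylated CpGs, 18.4% in F1VG and 18.3% in F1GV were unassigned, against 10.7% and 10.8% over all listed CpGs. The shares were 19.6% and 19.5% at the other CpGs of pooled level from 25% to 65%. At CpGs of at least 80% they were 20.9% and 21.0%, so a raised share was not particular to the partly methylated CpGs. In the unassigned reads at the partly methylated CpGs, 9884 of 22203 were methylated in F1VG, or 44.5% (Wilson 95% interval, 43.9 to 45.2). In F1GV 11801 of 27759 were methylated, or 42.5% (41.9 to 43.1). The reads assigned to an allele gave 46.5% and 45.8%, so the unassigned level was lower by a small amount in both libraries. Of CpGs with at least 20 unassigned reads, 311 of 394 (78.9%) in F1VG and 430 of 549 (78.3%) in F1GV were again at 25% to 65%. Few were near the extremes, with 0.761% and 1.46% under 5% and 2.54% and 0.729% at 80% or above. The other CpGs with a pooled level from 25% to 65% were at 25% to 65% in their unassigned reads in 68.5% and 75.6% of cases at the same minimum. Their pooled level includes the unassigned reads, so these shares follow in part from that choice and are not a like comparison.

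The unassigned level also followed the assigned level within the set. In F1VG it was 35.5% where the pooled assigned level was 25% to 35%, 39.7% at 35% to 45%, 47.2% at 45% to 55% and 57.9% at 55% to 65%. In F1GV the same steps were 32.3%, 37.4%, 45.9% and 52.8%. The order held in both libraries, and no interval of 1 step overlapped that of the next. Across CpGs with at least 20 unassigned reads, the level in unassigned and in assigned reads had r = 0.30 in F1VG (n = 394) and 0.36 in F1GV (n = 549), a description over CpGs of the same library.

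The 3 CpGs with the most unassigned reads in the library where they were fewer were position 8703450 of SCAFFOLD1, position 1663238 of SCAFFOLD18 and position 961688 of SCAFFOLD6. At the first, 36 of 74 unassigned reads were methylated in F1VG and 54 of 75 in F1GV, beside 10 of 21 V and 13 of 24 G reads in F1VG and 8 of 14 and 11 of 19 in F1GV. At the second the unassigned counts were 23 of 69 and 34 of 88. At the third they were 62 of 87 and 39 of 67. The second was thus partial in both libraries, while the first exceeded 65% in F1GV (72.0%) and the third in F1VG (71.3%).

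Unassigned reads of F1VG and F1GV were compared at each CpG with at least 8 such reads in each library. A level of at least 10% over the unassigned reads of both libraries was also required. Fisher's exact test (two-sided) was used, its p-values adjusted by Benjamini-Hochberg over all 48593 CpGs tested. Of these, 482 differed at an adjusted p under 0.05, or 0.992% of the background. Among the partly methylated CpGs 849 could be tested and 4 differed (0.471%), all 4 higher in F1VG. At an unadjusted p under 0.05, 73 of the 849 (8.60%) differed, against 12.6% of all tested. The share was 3.17% of 6811 among the other CpGs of pooled level from 25% to 65%, and 0.217% of 9218 at a pooled level of at least 80%. The count among the partly methylated CpGs was too small to be read apart from the background, and it was 2 when CpGs of every level were tested.

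The 4 CpGs are named after their values were seen. At position 2144577 of SCAFFOLD5, 26 of 34 unassigned reads were methylated in F1VG and 2 of 23 in F1GV, a difference of 67.8 points (Fisher's exact test, adjusted p = 0.000439). At position 1318154 of SCAFFOLD34 the counts were 27 of 32 and 9 of 37 (60.1 points, exact test, adjusted p = 0.000635). At position 300712 of SCAFFOLD178 they were 31 of 34 and 19 of 44 (47.99 points, exact test, adjusted p = 0.00428), and at position 824300 of SCAFFOLD89 they were 15 of 19 and 9 of 35 (53.2 points, exact test, adjusted p = 0.0437). At all 4 the unassigned level in F1VG lay above the upper bound that the allelic levels of both libraries met. At SCAFFOLD5, for example, the allelic counts were 4 of 9 and 3 of 11 in F1VG and 4 of 13 and 6 of 18 in F1GV.

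For agreement between the crosses, CpGs were chosen in 1 library alone and measured in the other. Of the 5307 CpGs with both alleles at 25% to 65% in F1VG, 2171 (40.9%, 39.6 to 42.2) had both alleles at 25% to 65% in F1GV. Of the 6174 chosen in F1GV, the same 2171 were 35.2% (34.0 to 36.4) in F1VG. Among all CpGs with a level of at least 10% in the choosing library the share was 3.65% and 4.67%. A partial level in one cross was therefore found again in the other more often than over this base, although in most cases not on both alleles. The base also held many CpGs with little methylation in the other library, with 58.4% and 41.4% under 5% there. These lower the comparison values and widen the contrast.

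The level in the other library was mostly still intermediate. Its median was 46.2% (chosen in F1VG) and 50.0% (chosen in F1GV), and 72.2% and 68.5% of the CpGs were at 25% to 65% there. Under 5% were 2.96% and 1.28%, and at least 80% were 2.52% and 4.02%. CpGs with both alleles at 80% or above were again at 80% or above in the other library in 84.4% of 17515 and 89.0% of 16605 cases, so partial CpGs crossed the limits of their band more often than high ones did. Their band also has 2 limits and the high band has 1.

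Agreement between the alleles was looser. Of 7625 CpGs with V at 25% to 65% in both crosses, 28.5% (27.5 to 29.5) had G at 25% to 65% in both, and of 6946 chosen on G, 31.3% (30.2 to 32.4) had V there. The comparison values, over CpGs with a level of at least 10% on the choosing allele, were 4.88% and 4.49%. Of those CpGs 53.0% and 56.2% were under 5% on the other allele, which lowers these values. The other allele was under 5% at 13.4% of the CpGs chosen on V and at 6.56% of those chosen on G. An absent mark on the other allele was thus more frequent than an absent mark in the other cross, where the shares were 2.96% and 1.28%.

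**Figure D2:**
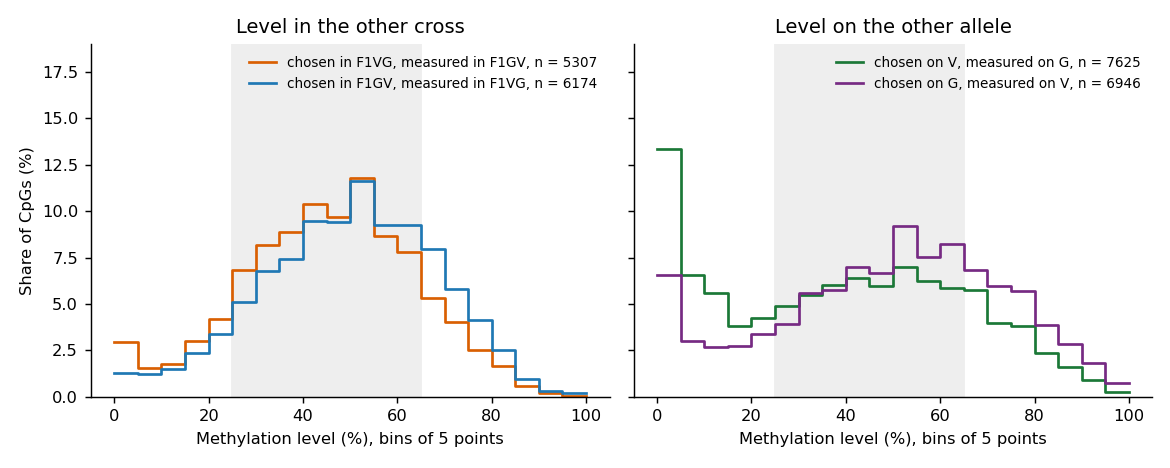
Share of CpGs (vertical axis, %) by methylation level (horizontal axis, bins of 5 points) where the level was not used in the choice: in the other cross (left) and on the other allele over both crosses (right), with the grey band from 25% to 65%. On the left both distributions peak within the band, while on the right 13.4% of CpGs chosen on V had G under 5%.

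Within the 2171, the gap between the alleles was of the size of the gap between the crosses. The median absolute difference of V and G was 9.77 points in F1VG and 9.44 in F1GV, and that of F1VG and F1GV was 9.19 points on V and 9.40 on G, all limited by the 40-point width of the bounds. The highest of the 4 levels exceeded the lowest by a median of 20.0 points, and 231 CpGs (10.6%) had all 4 within 10 points. V exceeded G in 1128 and G exceeded V in 1001 CpGs in F1VG, and in 1147 and 1000 in F1GV. When V and G reads were compared by Fisher's exact test over the 67811 CpGs with a pooled level of at least 10%, the background share that differed at an adjusted p under 0.05 was 16.3% in F1VG and 19.4% in F1GV. Of the 2171, 10 and 21 were among them, counts that the choice itself holds down.

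Partly methylated CpGs lay close to highly methylated ones. The nearest CpG with a pooled level of at least 80% was at a median of 126 bp, against 395 bp for the other CpGs of pooled level from 25% to 65%, 35 bp for CpGs of at least 80% themselves, and 51343 bp over all listed CpGs. The nearest CpG under 5% was farther, at a median of 385 bp, and 66.5% were closer to a CpG of at least 80% than to one under 5% (42.6% of the other intermediate CpGs). Within 100 bp of a CpG of at least 80% were 974 of the 2171 (44.9%, 42.8 to 47.0), against 26.5% of the other intermediate CpGs and 0.526% of all. With at least 90% as the limit for a highly methylated CpG the share was 26.8%. A CpG under 5% stood within 100 bp of 11.6%, against 27.5% of the other intermediate CpGs and 98.5% of all.

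CpGs were sparse around them. The median number of other listed CpGs within 100 bp was 2, as it was for CpGs of at least 80%, against 11 over all listed CpGs, and the nearest listed CpG was at a median of 34 bp against 5 bp. Sparse CpGs were therefore a trait they shared with highly methylated CpGs. Among the immediate listed neighbours (4340), 27.9% were at 80% or above, 18.7% at 65% to 80%, 32.2% at 25% to 65%, 11.2% at 5% to 25% and 435 of them were under 5%. Both neighbours were at 80% or above at 207 of 2169 (9.54%) and both under 5% at 24 (1.11%), while 873 (40.2%) had both neighbours between these limits. A direct step from at least 80% to under 5% across the partly methylated CpG was found at 120 (5.53%).

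The first CpG at 80% or above or under 5% was then sought on each side. Of 2166 partly methylated CpGs, 743 (34.3%) met one of at least 80% on both sides, 1047 (48.3%) met one of at least 80% on 1 side and under 5% on the other, and 376 (17.4%) met one under 5% on both sides. The other intermediate CpGs had more of the last class, with 19.2%, 45.2% and 35.6%, and CpGs of at least 80% had 59.1%, 36.8% and 4.13%. Their median pooled levels were 46%, 45.9% and 45.8%, values that the choice itself holds close. In unassigned reads, which the choice did not use, the levels were 43.1%, 44.99% and 45.9% in F1VG and 41.9%, 42.3% and 44.4% in F1GV. They were lowest between highly methylated CpGs and highest among CpGs under 5% in both libraries. This order was not tested, and 41.9% and 42.3% in F1GV lay close together. CpGs between highly methylated ones were a median of 59 bp from the nearest, those at a border 165 bp and those among CpGs under 5% were 3640 bp away.

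**Figure D3:**
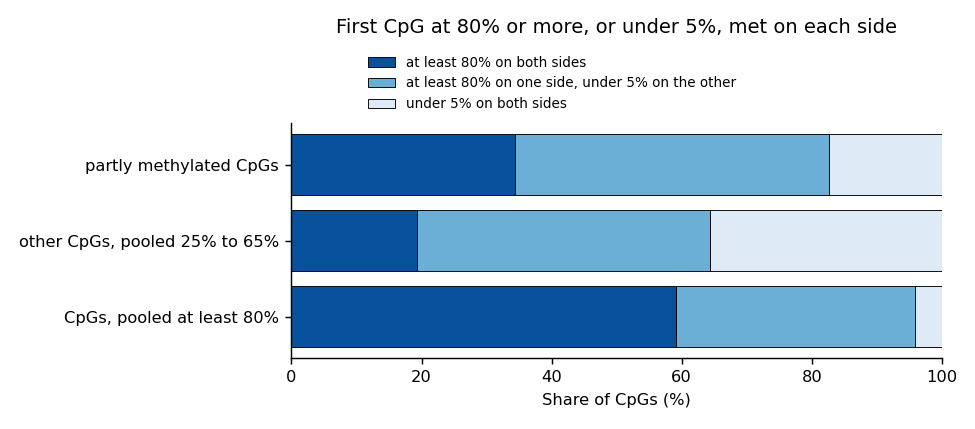
Share of CpGs (horizontal axis, %) by the class of the first CpG at 80% or above or under 5% met on each side, for the partly methylated CpGs, the other CpGs of pooled level from 25% to 65% and those of at least 80%. Partly methylated CpGs met a CpG of at least 80% on both sides in 34.3%, between the 19.2% of the other intermediate CpGs and the 59.1% of the highly methylated ones.

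The 2 partly methylated CpGs farthest from any CpG of at least 80% were position 56360 of SCAFFOLD81, 212548 bp away, and position 1715947 of SCAFFOLD4, 202586 bp away. The first had 12 of 31 V and 11 of 19 G reads methylated in F1VG and 8 of 24 and 14 of 36 in F1GV. The second had 7 of 11 and 5 of 10 in F1VG and 16 of 26 and 4 of 12 in F1GV, with 31 of 45 and 44 of 75 unassigned reads. Partial levels on both alleles were therefore also found far from high methylation, with listed neighbours at 2.15% and 10.7% at the first and 4.66% and 9.09% at the second.

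The distance between partly and highly methylated CpGs showed a repeat, noticed in these data. Of all listed CpGs within 0 to 14 bp of a partly methylated CpG, 13.7% were at 80% or above. The share rose to 40.7% at 75 to 89 bp, fell to 17.4% at 165 to 179 bp, rose again to 27.8% at 240 to 254 bp, fell to 13.0% at 330 to 344 bp and was 16.7% at 405 to 419 bp. Around a CpG of at least 80% the share of CpGs of at least 80% ran the other way, from 76.2% at 0 to 14 bp to 38.8% at 75 to 89 bp, 50.1% at 150 to 164 bp and 25.97% at 255 to 269 bp. Highly methylated CpGs thus tended to lie near each other at about the distances at which they were rarer around partly methylated CpGs.

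The difference between 240 to 254 bp and 165 to 179 bp from a partly methylated CpG was 10.4 points (95% interval 6.08 to 14.7, for counting error only, since pairs share CpGs and stretches). These bins were picked as a high and a low point of the same curve. The difference is thus biased upward, and its interval is no test of the repeat. The levels of the surrounding CpGs could be taken from parts of the data, with the same partly methylated CpGs and the same bins. The difference was then 9.79 points with F1VG reads alone, 10.2 with F1GV reads alone, 9.75 with V reads alone and 8.91 with G reads alone. It was 10.1 points without the 5 scaffolds with the most partly methylated CpGs, and 5.94 points when at least 90% was asked of a highly methylated CpG. With bounds of 30% to 60% it was 6.98 points, with an interval (0.341 to 13.6) that came close to no difference. The distances exceed the length of a read, so no single read spans both CpGs. The other intermediate CpGs showed 17.6%, 13.3% and 14.6% at 75, 165 and 240 bp, a range less wide than the 40.7%, 17.4% and 27.8% around the partly methylated ones.

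**Figure D4:**
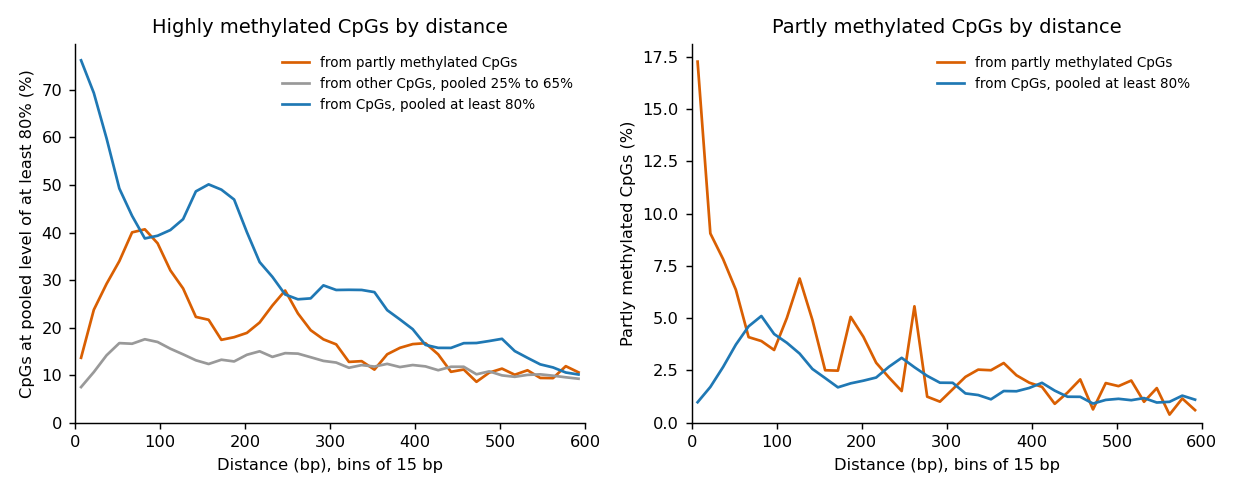
Share of listed CpGs at a pooled level of at least 80% (left) and share that were partly methylated (right) by distance in bp from a CpG of each kind (bins of 15 bp, drawn at their middle). From partly methylated CpGs the highly methylated share peaks at 75 to 89 bp (40.7%) and again at 240 to 254 bp (27.8%), and from highly methylated CpGs it has its second peak at 150 to 164 bp (50.1%).

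The same spacing is seen from the highly methylated CpGs. Of listed CpGs 0 to 14 bp from a CpG of at least 80%, 0.98% were partly methylated, against 5.11% at 75 to 89 bp, 1.69% at 165 to 179 bp, 3.10% at 240 to 254 bp and 1.12% at 345 to 359 bp. These counts hold the same pairs as those above and are no second measurement. Only 2.03% of the partly methylated CpGs had a CpG of at least 80% within 10 bp, against 16.9% of the CpGs of at least 80%. The other intermediate CpGs had the like share of 2.04%.

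Most partly methylated CpGs had no listed neighbour that met the same choice. Counting consecutive listed CpGs, 1858 of the 2171 had no partly methylated neighbour, 147 pairs, 5 runs of 3 and 1 run of 4 held the other 313 (14.4%, 13.0 to 15.96). By comparison, 54.1% of the other intermediate CpGs lay in runs of their own kind, with up to 19 in a run, and 77.4% of CpGs of at least 80%, with up to 16. These shares also follow the abundance of each kind and the number of limits it had to meet, so they do not rank the kinds. Of the immediate listed neighbours, 32.2% had a pooled level of 25% to 65%, but 7.37% met the choice on all 4 levels. With the partly methylated CpGs included, 57.7% of all CpGs of pooled level from 25% to 65% lay in runs. The low share in runs thus follows in part from the 4 levels asked of a neighbour. Gaps within runs were from 2 to 596 bp with a median of 31.5 bp, and 134 of 160 were no longer than a read, so that neighbours in a run often share reads.

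Closeness still raised the share. Among CpGs 1 to 10 bp from a partly methylated CpG, 18.8% were partly methylated themselves. The share was 7.62% at 26 to 50 bp and 0.288% at 2001 to 5000 bp. The 0.0392% over all listed CpGs is a low base, since most of them were under 5%. A higher base is the 3.20% among CpGs with a pooled level of at least 10%. Near the other intermediate CpGs, 2.66% were partly methylated at 1 to 10 bp and 2.32% at 26 to 50 bp. Close pairs often share reads, and pairs of partly methylated CpGs are counted from both ends. The pooled levels of a partly methylated CpG and its neighbours had r = 0.27 at 1 to 10 bp (393 pairs, which share reads). At 26 to 50 bp it was r = 0.04 over 1444 pairs. The choice holds the levels of the partly methylated CpGs close together, which by itself lowers r. From the other intermediate CpGs, r was 0.48 at 1 to 10 bp and 0.32 at 26 to 50 bp. These r values thus do not show that neighbouring levels are unrelated. Among neighbouring CpGs of pooled level of at least 10%, 2.10% of 3340 had V and G at least 40 points apart with the same sign in both crosses, against 8.04% of all CpGs of that level. The share was 1.42% beside the other intermediate CpGs and 4.90% beside CpGs of at least 80%, so a low share was not particular to the partly methylated ones.

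The run of 4 lay on SCAFFOLD9 at positions 1751726, 1751748, 1751758 and 1751772, over 46 bp. In F1VG the V counts along it were 12 of 27, 9 of 32, 10 of 31 and 19 of 32, and the G counts 10 of 28, 10 of 35, 18 of 35 and 17 of 32. In F1GV they were 7 of 22, 12 of 29, 17 of 33 and 15 of 36 on V and 14 of 31, 15 of 35, 17 of 36 and 17 of 35 on G. The mean over the run was 41.1% on V and 42.2% on G in F1VG and 41.6% and 45.95% in F1GV, so the 4 means lay within 5 points of each other. Of 23 listed CpGs within 500 bp on either side, 8 were at 80% or above and 7 under 5%, and the next CpG to the left, 25 bp away, was at 86.8%. Unassigned reads over the run were methylated in 12 of 24 in F1VG and 17 of 49 in F1GV.

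The other named runs held 3 CpGs each and differed in their surroundings. On SCAFFOLD204, positions 14283 to 14320 had counts on V of 27 of 43, 30 of 60 and 23 of 56 in F1VG and 17 of 34, 25 of 42 and 21 of 46 in F1GV. Those on G were 21 of 41, 23 of 53 and 28 of 54 in F1VG and 25 of 47, 15 of 56 and 15 of 51 in F1GV. The 10 CpGs listed within 500 bp all lay on the right, where none reached 80% and 8 were under 5%, while the next CpG on the left, 1101 bp away, was at 73.7%. Its unassigned reads were methylated in 24 of 64 in F1VG and 28 of 57 in F1GV.

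On SCAFFOLD16, positions 3884890 to 3884937 had the highest means of the named runs in F1VG, with 58.2% on V and 60.7% on G, and 52.3% and 51.5% in F1GV. Its few unassigned reads went apart from these levels, with 18 of 18 methylated in F1VG and 5 of 18 in F1GV, or 6 reads at each CpG. The nearest CpGs on the left (208 bp) and right (178 bp) were at 61.4% and 64.1%. On SCAFFOLD28, positions 1756104 to 1756239 stood at a border: the CpG on the left was at 75% and that on the right at 9.02%, and 17 of 22 flanking CpGs were under 5%. Means were 44.2% on V and 52.4% on G in F1VG and 47.4% and 37.5% in F1GV, and no allele was the higher in both libraries. It had 5 unassigned reads in each library, 3 and 2 of them methylated.

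On SCAFFOLD10, positions 2995045 to 2995176 were 64670 bp from the nearest CpG of at least 80%, within a stretch where the 15 flanking CpGs had a mean pooled level of 38.9% and a highest of 69.1%. Depth per allele was as low as 11 reads there. This run had the most unassigned reads of the 5, with 46 of 98 methylated in F1VG and 74 of 175 in F1GV. A sixth run, on SCAFFOLD40 at positions 541639 to 541897, also held 3 CpGs and is not described because its summed depth was lower. The surroundings of the 5 runs thus differed, with mixed high and unmethylated CpGs on SCAFFOLD9, intermediate levels on SCAFFOLD16 and SCAFFOLD10, and a methylated CpG on the left with mostly unmethylated CpGs on the right on SCAFFOLD28 and SCAFFOLD204.

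**Figure D5:**
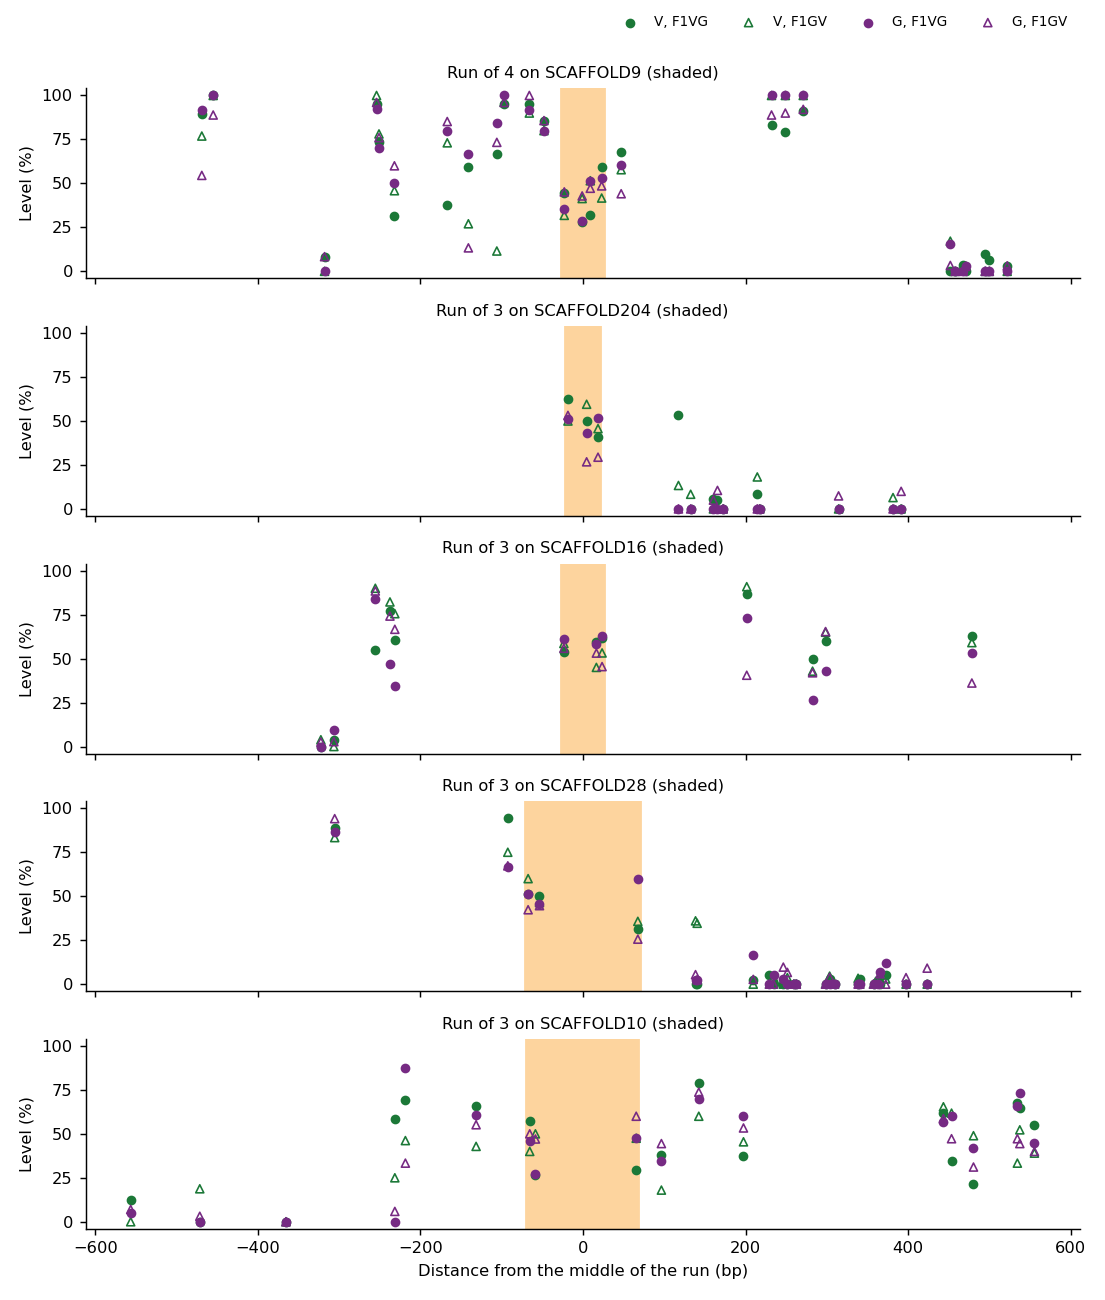
Methylation level (vertical axis, %) of each listed CpG by distance in bp from the middle of the run, in the 5 named runs (shaded), for V (green) and G (purple) in F1VG (filled circles) and F1GV (open triangles). The levels within the shaded runs lie from 25.6% to 62.8% for both alleles, while the flanks range from 0 to 100% on SCAFFOLD9 and, apart from 1 V level in F1VG, lie under 25% on SCAFFOLD204.

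The partly methylated CpGs were spread over 155 of the 2683 scaffolds. SCAFFOLD1 held 184, SCAFFOLD9 and SCAFFOLD16 held 111 each, SCAFFOLD2 held 91 and SCAFFOLD4 held 88, together 585 (26.9%), where 22.3% of CpGs with a pooled level of at least 10% and 18.4% of all listed CpGs lay. On 34 scaffolds with at least 500 CpGs of at least 10%, they were 2.29% to 4.98% of those CpGs, with a median of 3.41%. On these 34 scaffolds partial methylation of both alleles thus followed methylated CpGs, with a range of about 2 times between scaffolds. Scaffolds with fewer such CpGs ranged more widely, for example 8 of 57 on SCAFFOLD797 (14.0%) and 1 of 227 on SCAFFOLD52 (0.44%). In windows of 50000 bp, 1023 held at least 1 of them, 451 held exactly 1, and the most in a window was 9, reached in 4 windows.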

How the data were processed

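Whole-genome bisulfite libraries of F1VG and F1GV were made from pools of 50 females, 1 library each. The submitters' processing notes name CASAVA 1.8.2, FastQC, Trimmomatic and BWA. The authors trimmed and filtered the reads, mapped these single-end reads with BWA against bisulfite-converted assemblies of both species, version 1.0, and gave a read to V or G where it covered an informative difference. The deposited values are whole-number counts of methylated (C) and unmethylated (T) reads per CpG, over all reads, V reads and G reads. Each file's CpGs had at least 8 reads on each allele, which removes CpGs far from any difference between the parents. The authors put an unequal number of V and G reads down to mapping bias and state that they corrected it. Any such bias that remained could shift allelic levels.

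Levels were C/(C+T). Unassigned reads were all reads minus V and G reads. Wilson 95% intervals and two-sided Fisher's exact tests with Benjamini-Hochberg adjustment were obtained in Python 3.11.15 (pandas 2.3.3, NumPy 2.4.6, SciPy 1.17.1), and the test was checked on simulated data. Distances and runs used CpGs listed in both libraries. The partly methylated CpGs, named items and comparisons were chosen with earlier results of these data known. Named CpGs were the 5 runs with the most of them (ties by depth), the 4 deepest at no more than 2 times the median depth, the 3 with the most unassigned reads, the 2 farthest from a CpG of at least 80%, the nearest to each bound, and the 5 scaffolds with the most. Other bounds, depths, limits and distances were tried. No gene annotation or genome sequence was used here.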

Additional observations from a re-analysis of the deposited data

How the results depend on the processing

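With bounds of 30% to 60% there were 953 partly methylated CpGs, with 7.35% in runs, and the shares found again were 30.8% and 26.1% in the other cross (chosen in F1VG and F1GV) and 21.1% and 23.2% on the other allele (chosen on V and G). With bounds of 20% to 70% there were 4166, 24.2% in runs, unassigned levels of 45.7% and 43.5% in F1VG and F1GV, and shares of 48.9%, 43.0%, 36.1% and 38.7%. With at least 16 reads per allele there were 1248, 50.2% within 100 bp of a CpG of at least 80%, unassigned levels of 43.2% and 41.0%, and shares of 46.3%, 39.3%, 32.0% and 34.5%. The share near a highly methylated CpG was 26.8% with a limit of 90%, 23.2% within 50 bp and 56.8% within 200 bp. With both neighbours within 100 bp, 0.530% had both under 5%. Runs by 200 bp distance held 21.9%, and runs of at least 3 held 0.875%. Without the level filter 2 CpGs differed in unassigned reads, and the spacing difference was 5.94 points with a limit of 90%, an alternative chosen after seeing the data like all those of the spacing. With bounds of 30% to 60% that difference was 6.98 points, within the interval of the value reported. The other alternative values stayed within the 95% interval of the value reported or, for counts, within 1.5 times of it, and no direction reversed. No paired analysis was possible because each cross had 1 library, so no replicate could be left out either. Depth limits single CpGs: a median of 21 to 28 reads per allele leaves intervals about as wide as the bounds.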
